A study of Mus musculus with 8 samples.

Results

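Conventional dendritic cells are the antigen-presenting cells that take up material in tissues and show it to T cells in lymph nodes, and they fall into a cDC1 and a cDC2 branch. The cDC1 branch depends on the transcription factors IRF8 and BATF3, carries the chemokine receptor XCR1 and the dead-cell receptor CLEC9A, and specialises in cross-presentation, the display of engulfed antigens to CD8 T cells. Bone marrow cultures grown with GM-CSF usually hold macrophage-like cells together with dendritic cells and few cDC1, whereas cultures grown with FLT3 ligand give cells closer to the natural branches. The genes described here are 10 conventional dendritic cell lineage genes, chosen by symbol and found through their Ensembl identifiers among the 55450 genes of the deposited expression table: Zbtb46, Batf3, Wdfy4, Xcr1, Clec9a, Cadm1, Dpp4, Cd24a, Naaa and Kmo.

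The series holds 8 poly(A) RNA-seq libraries of cells that the labels call bone marrow-derived dendritic cells, although the titles abbreviate them in the way common for macrophages. One group of 4 libraries came from cells given recombinant S100A8/A9, an alarmin made of 2 calcium-binding proteins and abundant in neutrophils, and the other group of 4 came from cells given PBS, called vehicle here. All marrow came from mice with dry eye of Sjögren's syndrome (SS), in which the immune system attacks the glands that make tears and saliva, so both groups share the disease model. Strain, age, sex, dose, exposure time and the growth factors of the cultures are not given in the labels, nor whether replicates came from separate animals, so p-values measure only the spread between these libraries, which may be technical. Values are FPKM, so they are already corrected for gene length and for the depth of each library. Replicates 1 to 3 of both groups shared one table with rough depth estimates of 22783092 to 25675287 reads, and replicate 4 of both groups was made in a separate table with 33406251 reads for S100A8/A9 and 31889670 reads for vehicle. Tests therefore used replicates 1 to 3, and replicate 4 is given beside them.

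Many genes listed as dendritic cell markers were expressed, together with genes of macrophages and monocytes. Sums are for replicates 1 to 3 unless replicate 4 is named. Itgax, which encodes the integrin CD11c, was at 62.5, 47.2 and 54.2 FPKM with S100A8/A9 and at 66.9, 47.8 and 47.6 FPKM with vehicle. The 12 general dendritic cell genes, among them the MHC class II gene H2-Ab1 and the migration receptor gene Ccr7, summed to between 4185 and 5900 FPKM with S100A8/A9 and to between 3846 and 5860 FPKM with vehicle. In S100A8/A9 replicate 1, Cd74 alone held 3823 of the 5900 FPKM. In replicate 4 the sum was lower, at 2116 FPKM with S100A8/A9 and 2196 FPKM with vehicle. Flt3 and Bcl11a of the same list stayed at no more than 0.92 and 0.35 FPKM in replicates 1 to 3. The 13 cDC2 genes summed to between 464 and 516 FPKM with S100A8/A9 and to between 455 and 510 FPKM with vehicle. Sirpa and Itgam were the largest of these, at 188 and 148 of 516 FPKM in S100A8/A9 replicate 1. Of these 13, 9 passed the expression filter, and the lectin gene Cd209a was listed at 0 in all 6 libraries of replicates 1 to 3. The 12 macrophage markers summed to between 594 and 1073 FPKM with S100A8/A9 and to between 549 and 1024 FPKM with vehicle, and 2 of them stayed below 1 FPKM throughout. In replicate 4 the macrophage list summed to 1139 FPKM with S100A8/A9 and 1102 FPKM with vehicle, and the cDC2 list to 498 FPKM in each group. The 9 monocyte markers summed to between 9773 and 20700 FPKM with S100A8/A9 and to between 9740 and 17814 FPKM with vehicle. Chil3 alone held 20200 of the 20700 FPKM in S100A8/A9 replicate 1.

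The upstream sequences of 4 members are shown because they set members that passed the expression filter described below (Zbtb46 and Wdfy4) beside members that did not (Dpp4 and Xcr1). Each is the 250 bases before a RefSeq start of the gene in GRCm38.p6, the assembly that mm10 names, read 5′ to 3′ on the gene's strand. Capitals mark matches to 4 motifs searched on both strands after the sequences had been seen: the AP-1 motif TGANTCA, bound by BATF3 with JUN partners, the AP-1-IRF composite, which is GAAA directly followed by the AP-1 motif, bound by BATF proteins with IRF4 or IRF8, the interferon-response motif, which is GAAA, any 2 bases and GAAA again, and the PU.1 motif GAGGAAGT.
Zbtb46, chr2:181424389-181424638, minus strand: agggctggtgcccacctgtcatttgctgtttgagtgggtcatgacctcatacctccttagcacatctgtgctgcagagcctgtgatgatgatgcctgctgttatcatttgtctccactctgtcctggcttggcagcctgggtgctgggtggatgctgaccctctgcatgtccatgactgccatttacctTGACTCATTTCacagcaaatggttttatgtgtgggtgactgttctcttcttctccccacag
Wdfy4, chr14:33185067-33185316, minus strand: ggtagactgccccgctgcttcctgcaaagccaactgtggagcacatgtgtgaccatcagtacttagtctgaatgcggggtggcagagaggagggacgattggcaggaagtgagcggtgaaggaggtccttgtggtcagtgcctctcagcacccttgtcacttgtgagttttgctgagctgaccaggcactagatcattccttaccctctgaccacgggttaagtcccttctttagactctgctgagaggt
Dpp4, chr2:62412232-62412481, minus strand: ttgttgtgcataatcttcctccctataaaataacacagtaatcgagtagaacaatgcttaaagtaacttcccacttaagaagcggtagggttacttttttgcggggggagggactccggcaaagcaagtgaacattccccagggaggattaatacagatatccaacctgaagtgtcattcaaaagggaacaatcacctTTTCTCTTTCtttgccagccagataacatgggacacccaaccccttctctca
Xcr1, chr9:123862030-123862279, minus strand: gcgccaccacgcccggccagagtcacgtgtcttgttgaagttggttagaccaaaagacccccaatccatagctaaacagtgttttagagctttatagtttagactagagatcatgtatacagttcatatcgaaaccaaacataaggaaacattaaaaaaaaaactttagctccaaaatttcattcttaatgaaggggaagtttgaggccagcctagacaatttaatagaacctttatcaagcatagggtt

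In the Zbtb46 window the AP-1 match lies 61 to 55 bases before the start, and it is the first part of a match to the composite motif that runs from 61 to 51 bases before the start on the opposite strand. Of the 32851 mouse windows of this length, 6.75% hold the AP-1 motif, 33 windows hold the composite and 2.44% hold the PU.1 motif. The start used for Zbtb46 is at position 181424388, and other annotated transcripts start at 181459379 or 181459426, outside the window shown. On this minus strand those starts lie upstream, so the Zbtb46 window lies inside the gene, where it overlaps no annotated exon. Its matches are therefore not upstream of the gene as a whole. In the Dpp4 window an interferon-response match lies 52 to 43 bases before the start, a motif that 2.98% of windows hold. The Wdfy4 and Xcr1 windows hold none of the 4 motifs. Another annotated Wdfy4 transcript starts upstream at 33185508, so the Wdfy4 window too lies inside its gene, where it overlaps no annotated exon. Of the 8 members with a window in the RefSeq table, the 4 that passed that filter had GC contents of 76% (Batf3), 59.2% (Naaa), 54.4% (Wdfy4) and 51.6% (Zbtb46). The 4 that did not had 43.6% (Dpp4), 42.8% (Kmo), 38.8% (Xcr1) and 35.6% (Clec9a). The medians over all windows were 59.6% for genes past the expression filter and 50% for the others. The members' windows differ in kind, as those of Batf3, Kmo and Clec9a overlap annotated exons. Those of Zbtb46 and Wdfy4 overlap none but lie inside the gene. A match is a description of letters and says nothing of binding in these cells.

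Of the 10 members, 6 passed the expression filter (1 FPKM or more in 3 or more of the 6 libraries of replicates 1 to 3), and 4 did not. The order of mean level in vehicle was Naaa, Cd24a, Wdfy4, Batf3, Cadm1, Zbtb46, Dpp4, Kmo, Clec9a and Xcr1. Among neighbours in this order, the ranges of Batf3 and Cadm1, of Cadm1 and Zbtb46, and of each pair of neighbours from Dpp4 down to Xcr1 overlapped in at least one group. The ranges of the other neighbours were apart in both groups. The surface receptors that set cDC1 apart most sharply, XCR1 and CLEC9A, came from the 2 genes with the lowest levels.

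**Figure D1:**
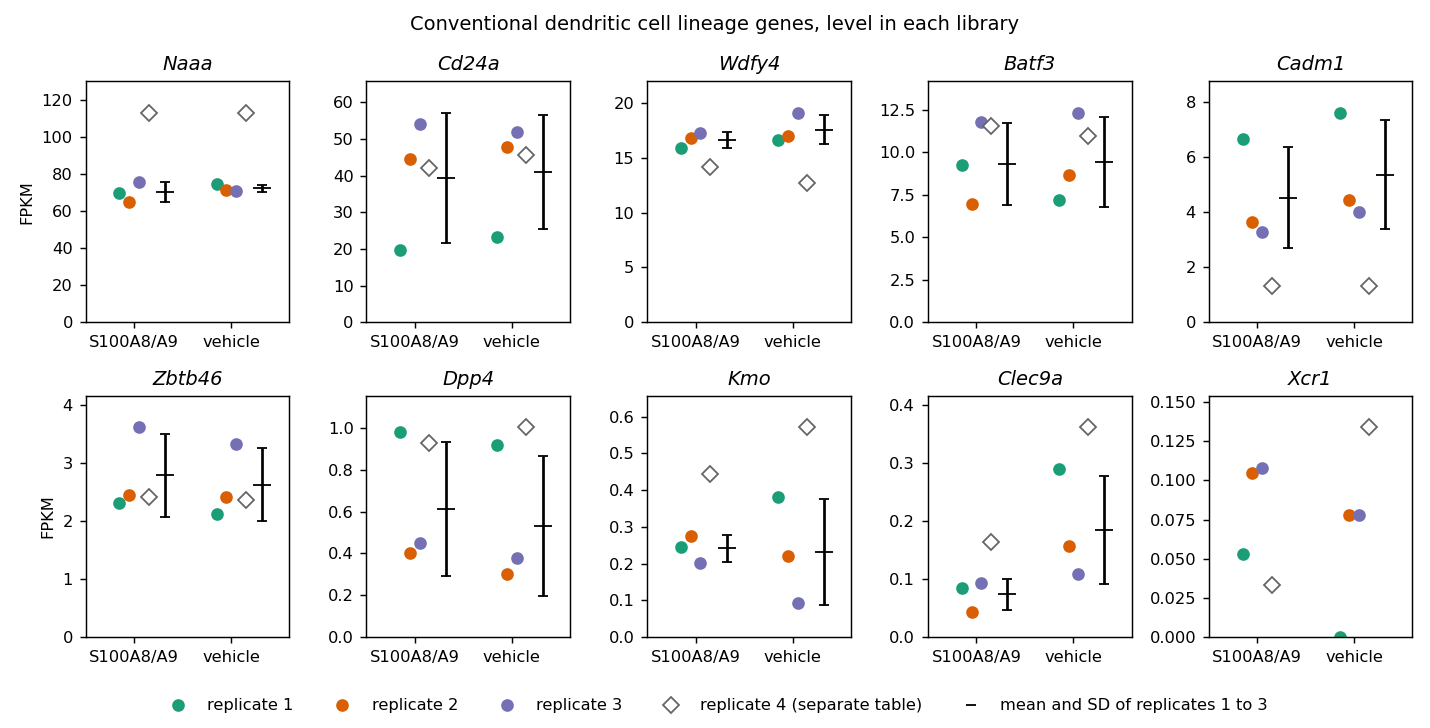
FPKM of the 10 lineage genes (vertical axes, linear, each starting at 0) in each library, with S100A8/A9 left and vehicle right in every panel, replicates coloured by number, and black bars for the mean and SD of replicates 1 to 3 (not drawn for Xcr1, listed at 0 in vehicle replicate 1). Points of the same replicate number sit at like heights in both groups for Cd24a, Cadm1, Zbtb46 and Dpp4, and only the Clec9a groups do not overlap in replicates 1 to 3.

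S100A8/A9 against vehicle asks whether the protein pair shifts the expression of these lineage genes. No tested member was called higher or lower. Limma on log2(FPKM + 1) gave an adjusted p of 1.00 after rounding for each of the 6 with group as the only term, with 0 of 6 at an unadjusted p under 0.05, against 0 of 11387 genes called (0%) and 344 at an unadjusted p under 0.05. When libraries were blocked by replicate number, 0 of the 6 were called, with adjusted p from 0.601 to 0.996, against 59 of 11387 genes (0.518%). None of the 6 had groups that did not overlap, against 6.65% of genes past the filter. Averaged geometrically over the 3 pairs, the S100A8/A9 to vehicle ratio of the 6 lay between 0.838 and 1.06.

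Among the transcription factors, Zbtb46 (ENSMUSG00000027583, chromosome 2, 181387762 to 181459426, minus strand), a zinc finger factor that marks committed conventional dendritic cells and their precursors, was low but present. Its level was 2.31, 2.45 and 3.62 FPKM with S100A8/A9 and 2.13, 2.41 and 3.33 FPKM with vehicle in replicates 1 to 3. Replicate 3 was the highest in each group, and the groups overlapped. The log2 difference was 0.06 (95% interval -0.36 to 0.49 with group only, -0.18 to 0.30 with the block). In replicate 4 it was 2.41 FPKM (686 reads) with S100A8/A9 and 2.36 FPKM (640 reads) with vehicle, so all 4 pairs were slightly higher with S100A8/A9, by ratios of 1.02 to 1.09.

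Batf3 (ENSMUSG00000026630, chromosome 1, 191097847 to 191108945, plus strand) encodes the AP-1 family factor that sustains Irf8 expression in cDC1. Its level was 9.23, 6.97 and 11.8 FPKM with S100A8/A9 and 7.21, 8.69 and 12.3 FPKM with vehicle. The pairs went both ways, with ratios of 1.28, 0.802 and 0.955, and the log2 difference was -0.0088 (95% interval -0.54 to 0.52 with group only, -0.30 to 0.28 with the block). Replicate 4 gave 11.6 FPKM (617 reads) with S100A8/A9 and 10.96 FPKM (558 reads) with vehicle. The sign turned with all 8 libraries, where the log2 difference was 0.011.

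Among the genes of antigen handling, Wdfy4 (ENSMUSG00000051506, chromosome 14, 32959547 to 33185508, minus strand) encodes a BEACH domain protein needed for cross-presentation of cell-associated antigen. It had one of the steadiest levels of the set, at 15.8, 16.8 and 17.2 FPKM with S100A8/A9 and at 16.6, 17.0 and 19.1 FPKM with vehicle. All 3 pairs were slightly lower with S100A8/A9 and the groups overlapped, with a log2 difference of -0.07 (95% interval -0.30 to 0.15 with group only, -0.23 to 0.09 with the block). In replicate 4 the order was the other way, at 14.1 FPKM (4974 reads) with S100A8/A9 and 12.7 FPKM (4266 reads) with vehicle.

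Among the surface proteins, Cadm1 (ENSMUSG00000032076, chromosome 9, 47530173 to 47857637, plus strand), an immunoglobulin family adhesion molecule used to gate cDC1, was lower with S100A8/A9 in each pair of replicates 1 to 3. Its level was 6.66, 3.66 and 3.29 FPKM with S100A8/A9 and 7.62, 4.45 and 4.00 FPKM with vehicle, which gives ratios of 0.874, 0.821 and 0.820. The groups overlapped widely because both replicate 1 libraries were high. The log2 difference was -0.21 (95% interval -0.86 to 0.44 with group only, -0.41 to -0.01 with the block), and with the block limma gave an unadjusted p of 0.0441 and an adjusted p of 0.601. In replicate 4 the values were alike at 1.31 FPKM with S100A8/A9 and 1.31 FPKM with vehicle. Read counts are not given for Cadm1 there, because its values were not whole multiples of 1 read at the exon length of the annotation used.

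Cd24a (ENSMUSG00000047139, chromosome 10, 43578284 to 43584265, plus strand) encodes a small glycosylated surface protein that marks cDC1 among dendritic cells but is also carried by granulocytes, B cells and erythroid precursors. It had the widest spread among the members past the filter, at 19.8, 44.4 and 54.2 FPKM with S100A8/A9 and 23.3, 47.9 and 51.9 FPKM with vehicle. Both replicate 1 libraries were low and the groups overlapped throughout, with a log2 difference of -0.09 (95% interval -1.07 to 0.89 with group only, -0.27 to 0.09 with the block). Replicate 4 gave 41.97 FPKM (3617 reads) with S100A8/A9 and 45.6 FPKM (3749 reads) with vehicle. Processed copies of Cd24a exist elsewhere in the mouse genome, and how reads shared with them were counted is not given in the sources used here, so its level is uncertain.

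Dpp4 (ENSMUSG00000035000, chromosome 2, 62330073 to 62412231, minus strand) encodes the peptidase CD26, found on cDC1 and on T cells, and it stayed below 1 FPKM in replicates 1 to 3. It was at 0.979, 0.404 and 0.449 FPKM with S100A8/A9 and at 0.916, 0.301 and 0.376 FPKM with vehicle, with both replicate 1 libraries well above the others. All 3 pairs were higher with S100A8/A9 while the groups overlapped, and in replicate 4 the order turned, with 0.928 FPKM (196 reads) with S100A8/A9 and 1.00 FPKM (202 reads) with vehicle. A non-coding gene on the opposite strand, Gm13561, shares exon sequence with Dpp4 and was at no more than 0.119 FPKM in any library, and no strand marking is stated for these libraries.

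Clec9a and Xcr1, the most specific cDC1 receptors, were near the limit of detection. Clec9a (ENSMUSG00000046080, chromosome 6, 129408862 to 129424763, plus strand), the receptor for actin exposed by dying cells, was at 0.0853, 0.0431 and 0.0931 FPKM with S100A8/A9 and at 0.289, 0.157 and 0.109 FPKM with vehicle. The groups did not overlap, as happened for 2.31% of the 32091 genes above 0 in at least 1 library in this direction. An exact two-sided permutation test over these 3 libraries against 3 gave p = 0.1, the smallest that 3 against 3 allow. In replicate 4 it was at 0.164 FPKM (18 reads) with S100A8/A9 and 0.362 FPKM (38 reads) with vehicle, a ratio of 0.452 with a 95% counting interval of 0.243 to 0.812 that compares those 2 libraries and not the conditions. All 4 pairs were thus lower with S100A8/A9, as were those of 4.25% of genes in both tables.

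These Clec9a values rest on few reads, roughly 4 to 8 per library with S100A8/A9 and 8 to 23 with vehicle in replicates 1 to 3. Without the filter limma gave an unadjusted p of 0.0749 with group only and 0.0851 with the block, and adjusted p of 0.951 and 0.839. The neighbouring lectin gene Clec1b shares exon sequence with Clec9a and was at 0.593, 0.0502 and 0.0253 FPKM with S100A8/A9 and at 0.135, 0.105 and 0.296 FPKM with vehicle. In replicate 4 Clec1b was at 0.299 FPKM with S100A8/A9 and 0.412 FPKM with vehicle, so it was lower with S100A8/A9 in 3 of 4 pairs. Its part in the Clec9a values was not tested. In bulk libraries, fewer cells of a type and less RNA per cell cannot be told apart.

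Xcr1 (ENSMUSG00000060509, chromosome 9, 123852315 to 123862029, minus strand), the receptor for the T cell chemokine XCL1, was at 0.0528, 0.104 and 0.108 FPKM with S100A8/A9. With vehicle it was listed at 0 in replicate 1 and was at 0.0779 and 0.0782 FPKM in replicates 2 and 3, so no library of replicates 1 to 3 held more than roughly 12 reads. Replicate 4 went the other way, with 0.0336 FPKM (5 reads) with S100A8/A9 and 0.134 FPKM (19 reads) with vehicle. The ratio there was 0.251 with a 95% counting interval of 0.0733 to 0.696. The direction was therefore not the same in the 2 tables, and intervals from reads cover counting error only.

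**Figure D2:**
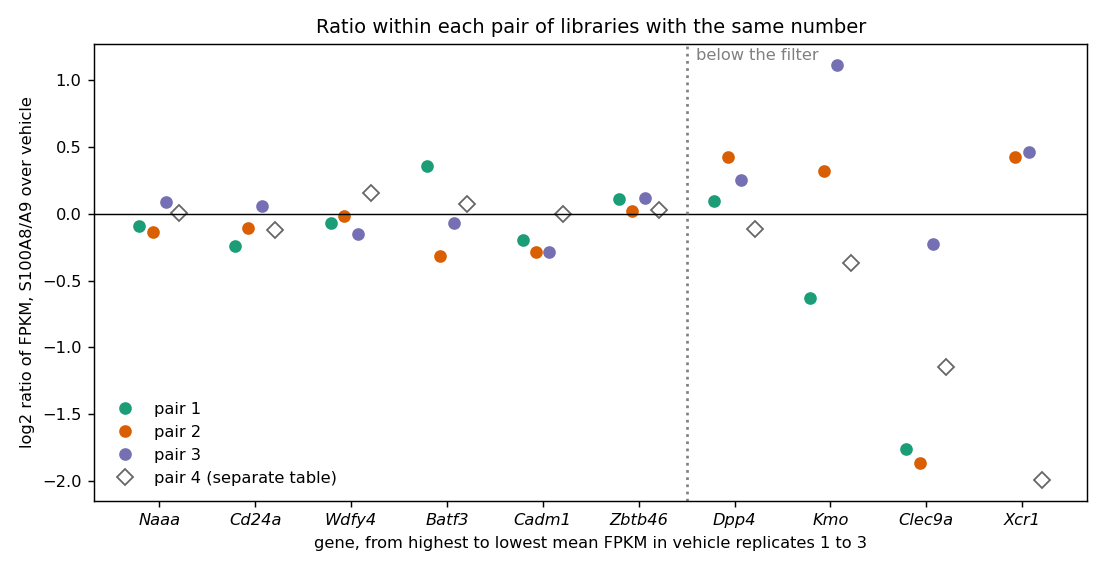
Log2 ratio of FPKM, S100A8/A9 over vehicle, within each pair of libraries of the same number (points, coloured by pair), for the 10 lineage genes ordered by level; genes right of the dotted line were below the filter, and Xcr1 has no pair 1 value because vehicle was listed at 0. The 6 members past the filter stay close to 0, while Kmo and Xcr1 scatter to both sides and all 4 Clec9a pairs lie below 0.

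Among the enzymes, Naaa (ENSMUSG00000029413, chromosome 5, 92257659 to 92278170, minus strand), a lysosomal hydrolase of N-acylethanolamines that cDC1 signatures contain, had the highest level of the set. It was at 70.2, 65.1 and 75.8 FPKM with S100A8/A9 and at 74.8, 71.7 and 71.2 FPKM with vehicle, with a log2 difference of -0.05 (95% interval -0.28 to 0.18 with group only, -0.20 to 0.11 with the block). Replicate 4 stood at 113 FPKM in both groups, from 14108 reads with S100A8/A9 and 13432 reads with vehicle. Kmo (ENSMUSG00000039783, chromosome 1, 175620381 to 175662116, plus strand), which hydroxylates kynurenine in tryptophan breakdown, was scarce, at 0.247, 0.277 and 0.203 FPKM with S100A8/A9 and 0.381, 0.222 and 0.0935 FPKM with vehicle. Its pair ratios of 0.648, 1.25 and 2.17 went both ways. In replicate 4 Kmo was at 0.444 FPKM (70 reads) with S100A8/A9 and 0.571 FPKM (86 reads) with vehicle.

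In each of the 6 tested members the replicate number held a larger share of the spread than the treatment. There are more replicate numbers than treatments, so on average this happens even in values with no structure. Each number has 1 S100A8/A9 and 1 vehicle library, and what a number marks is not in the labels. Of the sum of squares of log2(FPKM + 1) over the 6 libraries, the replicate number held 98.2% for Cd24a, 97.2% for Zbtb46, 92.1% for Cadm1, 81.1% for Batf3, 67.5% for Wdfy4 and 40.8% for Naaa. The treatment held at most 21.9%, for Wdfy4. The median over all tested genes was 63.6% for the replicate number, and 31.6% of genes were above 80%, as were 4 of the 6 members. Among the members below the filter the replicate number held 97.1% for Dpp4, 72.3% for Xcr1 and 63.4% for Kmo. Clec9a was the exception among the 10, with 25.9% for the replicate number and 51.2% for the treatment.

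**Figure D3:**
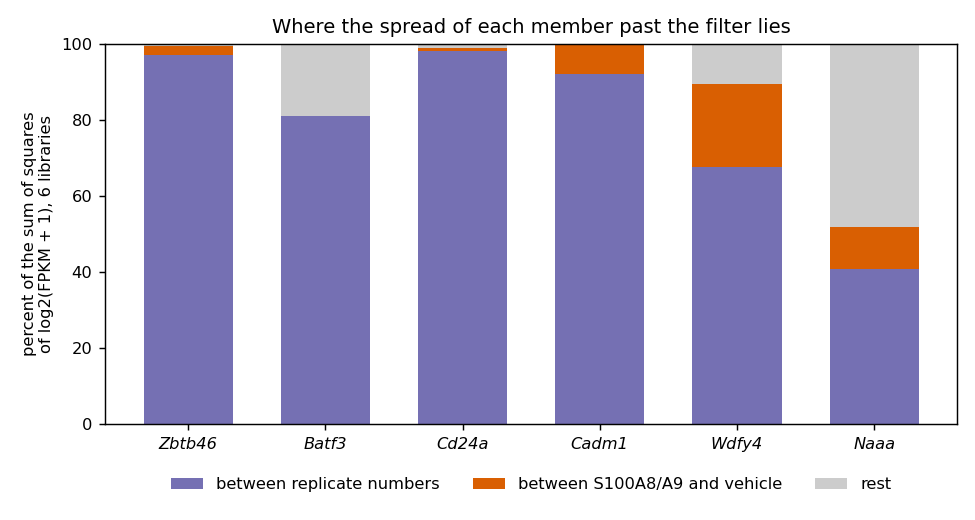
Percent of the sum of squares of log2(FPKM + 1) over the 6 libraries of replicates 1 to 3 (vertical axis, 0 to 100) that lies between replicate numbers, between S100A8/A9 and vehicle, and in the rest, for the 6 lineage genes past the filter. The replicate number takes from 40.8% (Naaa) to 98.2% (Cd24a). With more replicate numbers than treatments, its share is the larger on average even in values with no structure.

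Cd24a and Cadm1 differed between replicate numbers in opposite ways. In limma with terms for group and replicate number, 2 of the 6 members were called, Cd24a with an adjusted p of 0.00164 and Cadm1 with an adjusted p of 0.00985, against 1450 of 11387 genes (12.7%). Cd24a was higher in replicates 2 and 3 than in replicate 1 by 1.07 and 1.26 ± 0.09 (SE) on the log2(FPKM + 1) scale, and Cadm1 was lower there, with differences of -0.69 and -0.81 ± 0.10 (SE). Both calls rested on replicate 1, and without its libraries the adjusted p was 0.316 for Cd24a and 0.690 for Cadm1. Neither call held without the filter, at adjusted p of 0.0775 and 0.109, where 18 of 32091 genes were called.

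The 4 other tested members did not pass between replicate numbers. Batf3 and Zbtb46 had their highest level in replicate 3 of both groups, with log2 differences from replicate 1 of 0.51 ± 0.15 and 0.48 ± 0.12 (SE). Their adjusted p in the same limma test was 0.0746 for Batf3 and 0.0815 for Zbtb46. Wdfy4 and Naaa had adjusted p of 0.391 and 0.584.

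Markers of other cell types moved with the replicate numbers too. All 10 tested macrophage markers of the 12 were called between replicate numbers, against 12.7% of all tested genes. Each of these markers was lower in replicate 3 than in replicate 1. Their list summed to 1073, 714 and 594 FPKM in replicates 1 to 3 with S100A8/A9 and to 1024, 716 and 549 FPKM with vehicle. The 15 neutrophil markers summed to 130, 154 and 263 FPKM with S100A8/A9 and 129.6, 146 and 274 FPKM with vehicle. All 5 tested neutrophil markers were called, and they did not move together. S100a8, S100a9 and Lcn2 were higher in replicate 3 than in replicate 1, while Csf3r and Mmp8 were lower, by -0.85 and -0.48 on the log2 scale. Ly6g was at no more than 0.64 FPKM, and the granule genes Mpo and Elane at no more than 0.98 and 0.21 FPKM. The rise of the sum therefore does not hold for the neutrophil list as a whole. The 9 erythroid markers found summed to 4.71, 7.63 and 115 FPKM with S100A8/A9 and to 3.21, 9.66 and 129 FPKM with vehicle, and 4 of 4 tested ones were called. The 8 B cell markers stayed at sums of 1.62 to 3.19 FPKM over the 6 libraries, with none past the filter. Of the T and NK cell markers, 2 of 6 tested were called, Gzma and Gzmb, both lower in replicate 3 than in replicate 1. The part of these cell types in the Cd24a and Cadm1 levels was not tested.

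**Figure D4:**
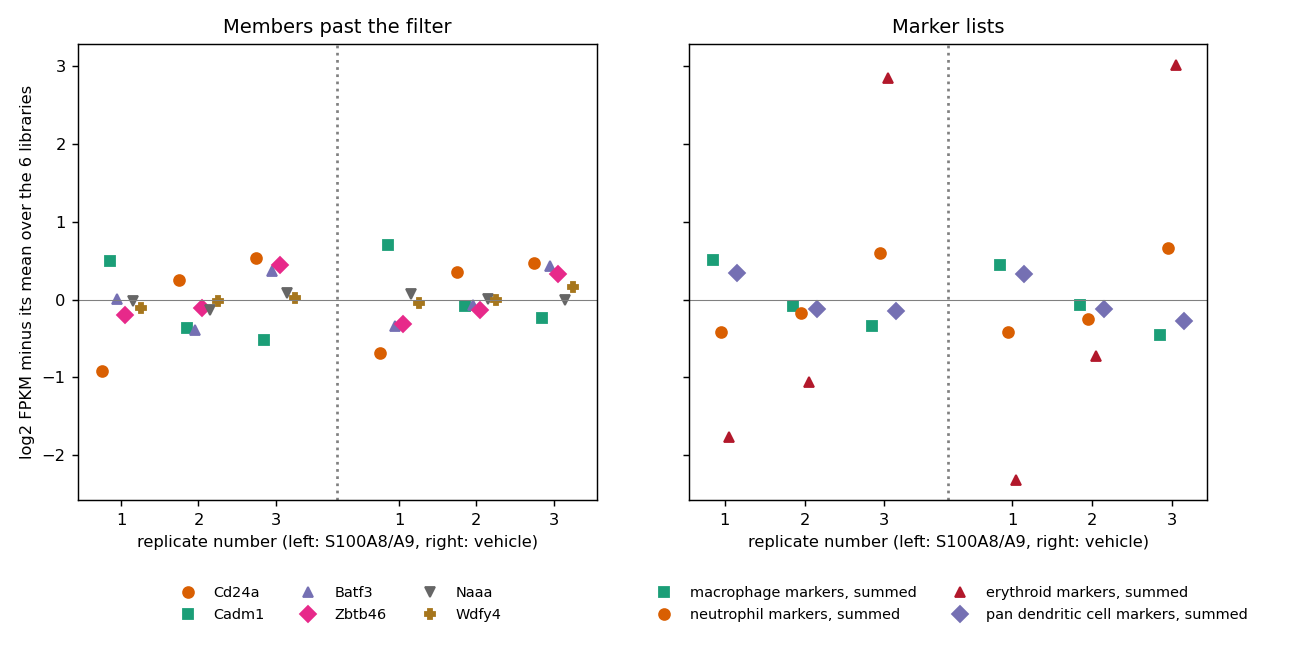
Log2 FPKM minus its mean over the 6 libraries of replicates 1 to 3 (vertical axis), for the 6 lineage genes past the filter (left panel) and for summed marker lists (right panel), with S100A8/A9 libraries left of the dotted line and vehicle right of it. Cadm1 and the summed macrophage markers are highest in replicate 1 of both groups, and Cd24a and the summed neutrophil and erythroid markers are lowest there. The neutrophil markers Csf3r and Mmp8, not drawn singly, were highest there.

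The genes whose profile was most like a member's were taken as the 3 with the highest Pearson r of log2(FPKM + 1) over the 6 libraries, among genes averaging 5 FPKM or more. For Zbtb46 these were Chst11, Stat5a and Fnbp1, each with r of 1.00 after rounding. For Cd24a they were Abcf2, Rrp7a and Anxa2 (r from 0.994 to 0.996), and for Cadm1 Fcgrt, Pofut1 and Tmed2 (r from 0.985 to 0.997). Batf3 had Fxr2, Tet2 and Ppp3ca (0.976 to 0.978), Wdfy4 had Herpud2, Kmt2e and Alkbh3 (0.979 to 0.988), and Naaa had Smim24, AC124502.3 and Lsm3 (0.970 to 0.978). The number of genes with r over 0.95 was 256 for Zbtb46, 241 for Cd24a, 68 for Cadm1, 20 for Batf3, 18 for Wdfy4 and 6 for Naaa. Among the members, Cadm1 and Cd24a had r of -0.93 and Batf3 and Zbtb46 had r of 0.87, all within libraries that share the replicate structure described above.

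The wider dendritic cell program also showed no treatment call. Over all 11387 tested genes, 0 were called with group only and 59 (0.518%) with the block. The absence of a call is therefore not particular to these lists. Between replicate numbers, 1450 of all tested genes (12.7%) were called. Of the other cDC1 genes, 4 of 14 found were past the filter and 0 were called with or without the block. Their median log2 difference was 0.31 against 0.025 over all tested genes. That median rests on 4 genes, among them Ifi205, which passed the filter only through the S100A8/A9 libraries. The cDC1 lectin receptor gene Ly75 and the double-stranded RNA sensor gene Tlr3 were called between replicate numbers (adjusted p of 0.0161 and 0.00827 in limma). Ly75 was higher and Tlr3 lower in replicate 3 than in replicate 1, by 0.55 ± 0.08 and -1.30 ± 0.15 (SE) on the log2 scale. Of the cDC2 genes, 9 of 13 were tested and 0 were called for treatment, while Irf4, Notch2, Mgl2 and Klf4 were called between replicate numbers. Of the general dendritic cell genes, 10 of 12 were tested and 0 were called for treatment, while 7, among them the antigen presentation genes H2-Ab1, H2-Aa and Ciita, were called between replicate numbers.

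Of 22 dendritic cell regulators, 21 were tested, 0 were called for treatment and 10 between replicate numbers, 9 of them higher in replicate 3 than in replicate 1. The shares called over all tested genes were 0.518% for treatment with the block and 12.7% between replicate numbers. Irf8, the partner of BATF3, was at 37.9, 29.0 and 51.3 FPKM with S100A8/A9 and at 36.3, 29.8 and 39.6 FPKM with vehicle, and the groups overlapped. Flt3, the receptor for the growth factor of natural conventional dendritic cells, stayed below the filter at 0.82, 0.31 and 0.52 FPKM with S100A8/A9 and 0.76, 0.49 and 0.92 FPKM with vehicle. In the list of partners and pathway neighbours of the members, which holds the ligand Xcl1, the kinase Syk, the kynurenine enzymes and the BATF and JUN relatives, 20 of 32 genes found were tested. None was called for treatment, and the lectin receptor adaptor gene Card9 and the ceramidase gene Asah1 were called between replicate numbers. The cells' own S100a8 and S100a9 transcripts were called between replicate numbers and had treatment differences of 0.10 and 0.07 on the log2 scale with adjusted p of 0.863 and 0.914 in limma with the block.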

How the data were processed

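The authors deposited one expression value per Ensembl gene and library as FPKM, a unit inferred here from the deposited values because no label or header states it. Per the submitters' processing notes, HISAT2, featureCounts, Subread, DESeq2 1.34.0 and mm10 were used, with no role or order given. The first table lists 55450 genes and the second 24848, with 24388 in both. Of the values worth up to 20 reads in the second, 98.77% (S100A8/A9) and 98.55% (vehicle) were whole reads within 0.01 reads, given exon lengths of the GENCODE M21 annotation of mm10, against 5.33% to 6.14% in the first, whose depth is therefore a rough estimate.

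Genes at 1 FPKM or more in 3 or more of the 6 libraries of replicates 1 to 3 were tested on log2(FPKM + 1) with limma 3.58.1 in R 4.3.3 (trended variances), two-sided, Benjamini-Hochberg adjusted over 11387 genes and called under 0.05. This scale understates changes of low genes. Deviations from the group means correlated at 0.595, 0.254 and 0.520 between libraries of the same number, which was taken as pairing, although its origin is not in the labels. The members and lists were chosen with earlier results of these data known. Named genes are all members, the 3 most alike genes per tested member, list genes called in either test (at most 4 by smallest p), and S100a8 and S100a9. Other genes in the text were named after their values were seen. Of the marker and regulator lists, Septin3, Siglec10 and Ahsp had no row under those symbols. Alternatives were the replicate block, all 8 libraries, each library or pair left out, a pseudocount of 0.1, no filter and 3 scalings. Promoter windows are from RefSeq (GRCm38.p6).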

Additional observations from a re-analysis of the deposited data

Results flagged for a closer look

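Values of 2 single libraries stood apart from the other 3 of their group by Dixon's criterion for 4 values, among 20 groups looked at, where chance marks about 1 in 20. Zbtb46 in S100A8/A9 replicate 3 was at 3.62 FPKM, with a gap of 0.888 of the group's range. Vehicle replicate 3 was also the highest of its group for Zbtb46. Naaa in vehicle replicate 4 was at 113 FPKM, with a gap of 0.914 of the range. S100A8/A9 replicate 4 was at 113 FPKM too, and both come from the separately made table.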

How the results depend on the processing

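The count of genes called for treatment was 0 with group only and 59 with the replicate block (57 higher and 2 lower). It was 0 with all 8 libraries, with or without the block. With group only, it was also 0 with a pseudocount of 0.1, without the filter, and under each of 3 scalings (median of ratios, upper quartile, quantile). The count with the block was not taken under these last settings, so they do not bear on the 59. Leaving out single libraries or pairs gave 0 to 95, with 1 without vehicle replicate 2 and, with the block, 42, 95 and 5 without replicates 1, 2 and 3. The block changed no call of a member. The count between replicate numbers was 1450. It was 18 without the filter and 314, 1833 and 526 without replicates 1, 2 and 3. Log2 treatment differences of 5 of the 6 tested members changed sign. That of Batf3 was 0.011 with all 8 libraries, with and without the block. Leaving out a single library, with group only, keeps its partner of the same number in the fit. That turned the sign of Batf3 (0.16 and 0.19), Cd24a (0.058, 0.12 and 0.33) and Zbtb46 (-0.088 and -0.037). It also turned Cadm1 (0.033, without vehicle replicate 1) and Naaa (0.0069, without S100A8/A9 replicate 2). Leaving out both libraries of a number, with the block, turned only Batf3, to 0.13 without replicate 2 and 0.018 without replicate 3. The other tested members kept their signs there. Wdfy4 kept its sign in all alternatives. Below the filter, Dpp4 turned to -0.080 without S100A8/A9 replicate 1 and -0.029 without vehicle replicate 2. Kmo turned to -0.017 with all 8 libraries, -0.0023 without S100A8/A9 replicate 2 and -0.065 without vehicle replicate 3. Clec9a and Xcr1 kept their signs in those run. With a pseudocount of 0.1 Clec9a was at -0.68 (-0.14 with 1) and Xcr1 at 0.34 (0.049 with 1). Batf3 passed between replicate numbers without replicate 2 (adjusted p = 0.0296 in limma). The causes were not tested. Depth limits Clec9a and Xcr1, where 3 reads are worth 0.0273 and 0.0202 FPKM in S100A8/A9 replicate 4 and 0.0286 and 0.0211 FPKM in vehicle replicate 4.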

Other observations

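Among the listed genes that no test called, Ifi205 and Batf2 had the lowest unadjusted p for treatment with group as the only term, and both were named after their values were seen. Ifi205 is a DNA-binding protein gene of the interferon-inducible Ifi200 family that cDC1 also express. In replicates 1 to 3 it was at 1.72, 1.76 and 1.20 FPKM with S100A8/A9 and at 0.9998, 0.749 and 0.732 FPKM with vehicle. All these vehicle values were under 1 FPKM, so Ifi205 passed the filter only through the S100A8/A9 libraries. Its difference and p were therefore favoured by the filter. The groups did not overlap, and the log2 difference was 0.48 ± 0.16 (SE). For Ifi205 limma gave an adjusted p of 1.00 after rounding with group only and 0.373 with the block. In replicate 4 it was at 0.179 FPKM with S100A8/A9 and 0.210 FPKM with vehicle, so the order turned at a lower level. Batf2, a BATF family gene that responds to interferon, was at 7.61, 8.20 and 6.46 FPKM with S100A8/A9 and at 5.73, 6.33 and 4.98 FPKM with vehicle, again without overlap. Such lack of overlap, in either direction, was seen in 6.65% of genes past the filter. The log2 difference of Batf2 was 0.33 ± 0.13 (SE), and limma gave an adjusted p of 0.9998 with group only and 0.230 with the block. In replicate 4 Batf2 was at 3.32 FPKM with S100A8/A9 and 3.01 FPKM with vehicle.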
